A study of Mus musculus with 2 samples.

Results

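The genes described here belong to 7 families of solute carriers that move amino acids, amino acid transmitters and related small molecules across membranes. They are the genes of the deposited table whose symbol starts with Slc1a, Slc3a, Slc6a, Slc7a, Slc36a, Slc38a or Slc43a followed by a digit. Of the 30905 genes in the table, 67 fit this rule, and 51 of them had at least 20 unique molecular identifiers (UMIs) over all barcodes and are called measured. The symbols were taken by name and not by a measured value, though the carriers were chosen with earlier results of these data known. The measured members were taken from counts over all barcodes together. The least abundant measured gene, Slc1a7, had 20 UMIs and the most abundant unmeasured gene, Slc36a2, had 19. Single nuclei were isolated from the frozen cerebral cortex of untreated wild-type C57BL/6 mice and profiled on the 10x Genomics Chromium platform; the series asks how barrier genes of the different cell types change with age. The 2-month sample and the 18-month sample each pooled 3 animals on a normal diet, and the series text gives ranges of 2 to 3 and 18 to 22 months. Both samples share 1 count matrix whose barcodes end in 1 of 2 suffixes, called library 1 and library 2. Nothing in the labels or files ties a suffix to an age, so no age is given to either library and none was compared.

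The libraries held 58108297 and 60547146 UMIs over 8914 and 8587 barcodes, and the 67 genes took 0.25% and 0.249% of them. After filtering, 8294 and 7939 nuclei remained, with medians of 6044.5 and 6490.0 UMIs, and 19 barcode sequences occurred in both libraries. Nuclei were clustered without the carriers and named from marker lists, so a class name means resemblance by markers. Comparisons used the 10 classes that reached 50 nuclei in both libraries: astrocytes (445 and 426 nuclei), oligodendrocytes (896 and 425), oligodendrocyte precursors (128 and 156), microglia (217 and 210), endothelial nuclei (158 and 289), pericytes (54 and 61), fibroblasts (177 and 193), and excitatory (4333 and 4395), inhibitory (723 and 612) and striatal projection neurons (393 and 231). Although the tissue is labelled cortex, nuclei like striatal projection neurons, hippocampal neurons, ependyma and choroid plexus were present. Levels are UMIs summed over a class and library, as counts per 1000000 UMIs of that sum (CPM), with exact 95% Poisson intervals in parentheses. A count of 0 is given with the level that 3 counts would make, which lies below the upper end of its exact interval. Nuclei are not replicates, each age is 1 pool, and the intervals cover counting error only, so no test was made. Each list's markers were highest in their own class in both libraries for all 10 endothelial, 9 astrocyte, 8 fibroblast and 9 microglia markers, but for only 3 of 7 excitatory markers. RNA of other cells was present in every class. The summed level of 7 excitatory markers was 1995 and 1862 CPM in microglia and 1969 and 1786 CPM in pericytes, beside 2451 and 2201 CPM in excitatory neurons, and its part in the levels below was not tested.

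Glutamate and GABA released at synapses are taken up by carriers driven by the sodium gradient, mostly on astrocytes and on GABA neurons, and glutamine is passed back to neurons by carriers of family 38. Essential amino acids enter through the endothelium by exchangers of family 7, some of which need a heavy chain of family 3 to reach the membrane. Cystine enters some cells in exchange for glutamate and feeds glutathione, while taurine, creatine, glycine and proline have carriers of family 6.

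Promoter letters are shown for 5 carriers that were high in the vessel wall or the fibroblasts, so that the near copies Slc6a20a and Slc6a20b and the motif matches can be read. They lie before RefSeq starts on GRCm38.p6, 5′ to 3′ on the strand of the gene, ending before the first annotated exon base. Of the 67 genes, 49 had a start in this RefSeq collection, 38 of them among the 51 measured. Capitals mark matches to TGATGNAA, an element bound by C/EBP and ATF dimers in amino acid response genes, or to TGACNNNGC, the core of the antioxidant response element, on either strand.
Slc7a11 (chr3:50443615-50443863, minus strand): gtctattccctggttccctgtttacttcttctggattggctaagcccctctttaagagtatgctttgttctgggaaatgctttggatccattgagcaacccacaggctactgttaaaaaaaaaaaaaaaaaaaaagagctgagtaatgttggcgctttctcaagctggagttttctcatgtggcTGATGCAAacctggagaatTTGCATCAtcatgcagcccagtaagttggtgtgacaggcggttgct
Slc6a20a (chr9:123678886-123679082, minus strand): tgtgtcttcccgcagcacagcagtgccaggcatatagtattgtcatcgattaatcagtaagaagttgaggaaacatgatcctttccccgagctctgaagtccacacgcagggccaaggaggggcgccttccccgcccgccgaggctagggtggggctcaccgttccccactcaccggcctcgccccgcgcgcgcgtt
Slc6a20b (chr9:123632566-123632788, minus strand): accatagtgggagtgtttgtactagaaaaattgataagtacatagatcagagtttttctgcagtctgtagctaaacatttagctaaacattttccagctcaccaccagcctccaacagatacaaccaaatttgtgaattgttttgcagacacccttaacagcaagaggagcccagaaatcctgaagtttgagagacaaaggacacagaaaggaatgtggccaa
Slc38a11 (chr2:65364035-65364276, minus strand): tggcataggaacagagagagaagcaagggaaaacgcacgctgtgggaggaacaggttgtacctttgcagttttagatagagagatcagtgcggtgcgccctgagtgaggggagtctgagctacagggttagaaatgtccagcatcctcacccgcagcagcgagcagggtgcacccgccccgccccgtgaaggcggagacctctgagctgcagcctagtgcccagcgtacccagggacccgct
Slc7a1 (chr5:148399905-148400154, minus strand): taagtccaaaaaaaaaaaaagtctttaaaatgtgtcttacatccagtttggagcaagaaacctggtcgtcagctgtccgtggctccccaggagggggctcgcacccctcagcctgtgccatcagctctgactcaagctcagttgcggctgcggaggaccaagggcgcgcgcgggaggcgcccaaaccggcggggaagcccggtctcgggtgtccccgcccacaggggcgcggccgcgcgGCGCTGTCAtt
Slc7a11 held TGATGNAA on both strands, at -66 and -47 from its start. A single match or more occurred in 3.45% of 32851 promoters of this length and 2 or more in 13 of them, 0.0396%. Of the 49 carrier genes with a promoter in the RefSeq table, Slc7a11 was the only one with 2 in a single promoter, and Slc7a7 held 1 in each of 2 promoters. Slc7a1 held TGACNNNGC at -11 from its start, an element found in 10.2% of all promoters. The promoters of the neighbouring copies Slc6a20a and Slc6a20b differed in composition, with 21 and 0 CG pairs in the 250 bases before the start, beside a median of 6 over all promoters. The matches are descriptions of letters, and no binding was measured in these data.

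In both libraries the same class held the highest level for 32 of 51 measured genes, beside 41.9% of all 18945 genes with at least 20 UMIs. These were 11 genes in fibroblasts (6.21% of all genes), 6 in endothelial nuclei (6.22%), 5 in astrocytes (4.06%), 3 in inhibitory neurons (3.07%), 3 in microglia (5.97%), and 1 each in excitatory neurons (2.36%), oligodendrocytes (3.88%), oligodendrocyte precursors (2.78%) and pericytes (4.24%). None had striatal projection neurons as its shared highest class (3.15%). A non-neuronal class was thus the shared highest one for 28 of 32 carriers, 87.5%, and for 79.6% of the 7947 genes with a shared highest class. A gene was called high in a class where its level, with 1 CPM added, was at least 2-fold above every other class in both libraries. This held for 20 of 51 carriers, beside 9.37% of all genes, and the plot of levels by class shows them. The shares over all genes were not matched to the carriers in UMI counts. The calls were for 7 carriers in fibroblasts (1.47% of all genes), 4 in endothelial nuclei (1.73%), 4 in astrocytes (1.18%), 2 in microglia (1.67%), and 1 each in oligodendrocytes (1.06%), precursors (0.602%) and pericytes (0.618%). Within each library alone, astrocytes were the highest class for 7 and 6 carriers, beside 8.43% and 8.54% of all genes, and fibroblasts for 13 and 14, beside 14.5% and 14.8%. No carrier was called in excitatory (0.0686% of all genes), inhibitory (0.391%) or striatal projection neurons (0.581%). The highest level of a measured gene in any class, as the mean of both libraries, ran from 0.284 to 7972 CPM with a median of 89.3. Gene models of 22 of the 51 measured carriers overlap another gene on the opposite strand. Among the called carriers these are Slc1a2, Slc6a6, Slc6a9, Slc6a11, Slc6a13, Slc6a20b, Slc7a2, Slc7a5, Slc7a7, Slc7a10 and Slc7a11, and among the others described below they include Slc1a1, Slc6a20a and Slc7a14. Since the strand setting of the counting is not given in the sources used here, reads of such partners cannot be told apart. Slc1a3, Slc6a6, Slc6a20a, Slc7a11, Slc38a9 and Slc43a2 also overlap a gene on their own strand, so reads may have been split there.

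**Figure D1:**
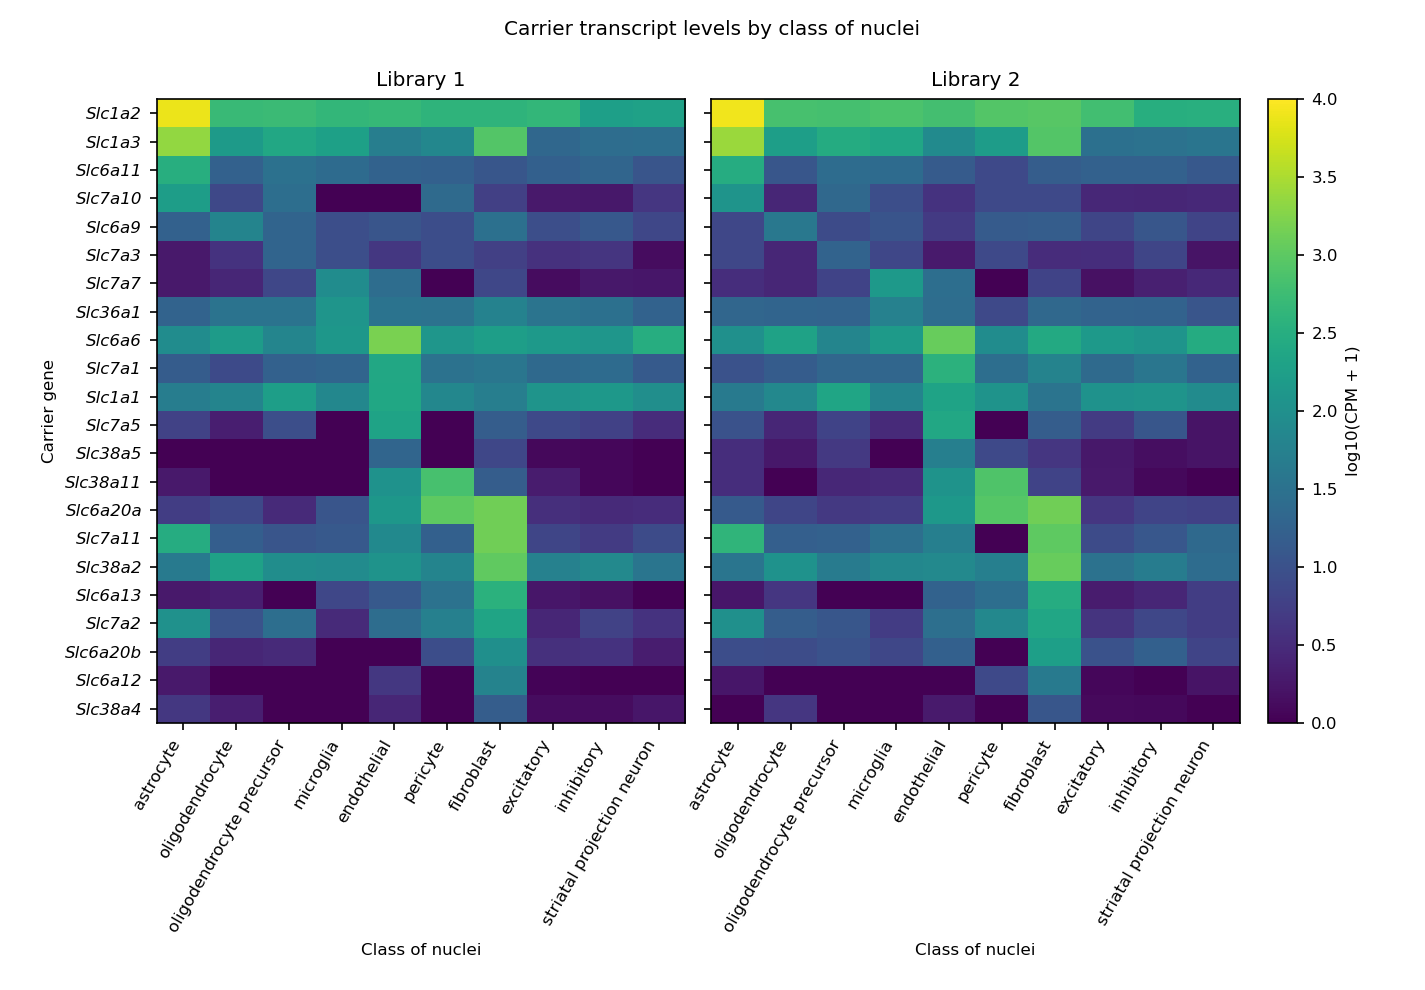
Levels of the 20 carriers called in a class, and of Slc1a1 and Slc6a20a, in 10 classes of nuclei in each library, coloured by log10(CPM + 1). Slc1a2 in astrocytes is the highest value in both libraries, at 7639 and 8305 CPM, and the endothelial, pericyte and fibroblast classes are bright for different genes.

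Of the 4 carriers called in astrocytes, 2 carry glutamate. Slc1a2, which encodes GLT-1, the main glutamate uptake carrier of the forebrain, lies on chromosome 2 from 102658659 to 102790784 (mm10). It stood at 7639 CPM (7482 to 7798) in library 1 and 8305 CPM (8148 to 8464) in library 2 in astrocytes. In the other 9 classes it ran from 179 to 538 CPM in library 1 and from 321 to 917 CPM in library 2, all far below the astrocyte level. The 9 astrocyte markers gave a rough yardstick for astrocyte RNA outside astrocytes, with levels as shares of those in astrocytes. In microglia the marker median was 7.13% and 6.1%, and Slc1a2 was at 5.77% and 8.83%. In excitatory neurons the median was 2.79% and 3.75%, and Slc1a2 lay above it at 5.73% and 7.34%. The highest single marker reached 63% and 57.6% in striatal projection neurons. What astrocyte RNA adds to Slc1a2 levels in other classes was not tested. Slc1a3, the gene of the glial carrier GLAST, lies on chromosome 15 from 8634124 to 8710764 and stood at 2247 CPM (2162 to 2334) in library 1 and 2493 CPM (2408 to 2581) in library 2 in astrocytes. Fibroblasts came next for Slc1a3 at 855 and 863 CPM, or 38.1% and 34.6% of the astrocyte level, while the astrocyte markers there had a median of 8.71% and 19.9%. Slc1a3 thus lay above that median, but below the highest single marker, at 44.3% and 83.2%. The remaining 8 classes held Slc1a3 at 20.3 to 247 CPM in library 1 and 28.7 to 284 CPM in library 2.

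Slc1a1 encodes EAAC1, a glutamate and cysteine carrier known from neurons. It stood at 245 CPM (206 to 288) in library 1 and 212 CPM (185 to 241) in library 2 in endothelial nuclei and at 175 and 221 CPM in oligodendrocyte precursors. The endothelial level was the highest in library 1 and the precursor level in library 2, and the intervals of these neighbours overlapped in both libraries. Inhibitory neurons held 136 and 117 CPM and excitatory neurons 118 and 107 CPM, and the other 6 classes 48.5 to 95.3 CPM in library 1 and 33.7 to 112 CPM in library 2. Slc1a6, the carrier EAAT4, was low everywhere, with its highest level in inhibitory neurons of library 1 at 12.5 CPM and in oligodendrocyte precursors of library 2 at 12.6 CPM. Slc1a7, known from the retina, reached 0.567 CPM in oligodendrocytes of library 1 and 0.171 CPM in excitatory neurons of library 2. The neutral amino acid exchangers of family 1 separated between classes. Slc1a4, which carries serine and alanine, was highest in astrocytes at 91 CPM (74.6 to 110.0) in library 1 and 78.6 CPM (64 to 95.5) in library 2. Slc1a5, a glutamine exchanger, was highest in fibroblasts at 45 and 30.5 CPM, followed by pericytes at 31.4 and 19.8 CPM.

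Carriers of GABA were called in astrocytes and in fibroblasts. Slc6a11, the gene of the glial carrier GAT3, lies on chromosome 6 from 114131241 to 114249952 and stood at 322 CPM (291 to 357) in library 1 and 298 CPM (269 to 329) in library 2 in astrocytes, 10.2 and 11.4 times the next class with 1 CPM added. The other classes ran from 10.5 to 30.6 CPM in library 1 and 6.61 to 25.2 CPM in library 2.

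Slc6a13, the gene of GAT2, and Slc6a12, the gene of a betaine and GABA carrier, are 5342 bases apart on chromosome 6. Slc6a13 stood at 352 CPM (308 to 401) in library 1 and 302 CPM (268 to 340.0) in library 2 in fibroblasts and Slc6a12 at 60.5 CPM (43 to 82.8) in library 1 and 41.3 CPM (29.2 to 56.7) in library 2. Pericytes came next for Slc6a13 at 31.4 and 26.5 CPM, from 4 UMIs in each library. In the other 8 classes Slc6a13 ran from 0 to 12.1 CPM in library 1 and 0 to 17 CPM in library 2, and Slc6a12 did not exceed 3.44 CPM in library 1 or 6.61 CPM in library 2 outside fibroblasts. Slc6a9, the gene of the glycine carrier GlyT1, was called in oligodendrocytes, at 61.8 CPM (50.8 to 74.6) in library 1 and 38.7 CPM (28.3 to 51.6) in library 2. Fibroblasts followed at 29.5 and 14.1 CPM and astrocytes held 16.2 and 6.22 CPM. Slc6a5, the neuronal glycine carrier, had 6 UMIs and was not measured.

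Slc7a5 and Slc7a1, carriers of essential amino acids, were called in endothelial nuclei, while the light chains Slc7a7 and Slc7a8 were highest in microglia. Slc7a5, the gene of LAT1, the carrier of large neutral amino acids at the blood-brain barrier, lies on chromosome 8 from 121881150 to 121907694 and stood at 205 CPM (169.8 to 245) in library 1 and 251 CPM (221 to 283) in library 2. Fibroblasts came next at 14 and 14.1 CPM, and pericytes had 0 UMIs in both libraries, which allows up to 23.5 and 19.8 CPM. Slc7a1, the gene of the arginine and lysine carrier CAT1, lies on chromosome 5 from 148327410 to 148399904 and stood at 248 CPM (209 to 292) in library 1 and 373 CPM (337 to 411) in library 2, against 6.81 to 35.7 CPM in library 1 and 9.34 to 59.8 CPM in library 2 elsewhere. Slc3a2, the heavy chain that partners Slc7a5 and other light chains, was highest in endothelial nuclei too, at 149.8 CPM (120.0 to 185) in library 1 and 165 CPM (141 to 191) in library 2, but with fibroblasts close at 104 and 109.8 CPM it was not called. Its lowest level was in striatal projection neurons, 26.9 and 16 CPM. Slc3a1, the heavy chain of cystine uptake in kidney, reached 2.19 CPM in inhibitory neurons of library 1 and 6.61 CPM, from 1 UMI, in pericytes of library 2.

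Slc6a6 encodes the taurine carrier and lies on chromosome 6 from 91684053 to 91759066. It stood at 1569 CPM (1469 to 1674) in library 1 and 1191 CPM (1126 to 1258) in library 2 in endothelial nuclei, 5.01 and 4.13 times the next class. That class was striatal projection neurons in both libraries, at 312 and 288 CPM. Slc38a5, a glutamine and histidine carrier, was called in endothelial nuclei from few counts, at 18.9 CPM (9.46 to 33.9) in library 1 and 53 CPM (40.0 to 68.8) in library 2, from 11 and 56 UMIs. Slc38a3, a glutamine carrier of the same kind, was not called, since endothelial nuclei held 94.7 and 66.2 CPM and astrocytes 93.6 and 55.2 CPM. The 2 intervals overlapped in each library, at 94.7 CPM (71.4 to 123) and 93.6 CPM (76.9 to 113) in library 1.

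The endothelial class joined 2 clusters that differed in these carriers. Cluster 17, led by Slco1a4, Adgrl4 and Flt1, had 140 and 225 nuclei, and cluster 27, led by Eln and Bmx, had 18 and 64. Slc7a5 stood at 225 and 309 CPM in cluster 17. In cluster 27 it had 0 UMIs in library 1, where 3 counts would make 57.0 CPM, and 9.75 CPM (1.18 to 35.2) in library 2. Slc7a1 stood at 267 and 440.0 CPM in cluster 17 and 57 and 92.6 CPM in cluster 27. Slc6a6 was closer, at 1623 and 1247 CPM against 1026 and 956 CPM. For all 3 carriers the intervals of the 2 clusters did not overlap in either library, and the small number of cluster 27 nuclei in library 1 limits its precision. The 7 pericyte markers summed in the endothelial class to 59.1% and 51.2% of their level in pericytes. Of these markers, 1 in library 1 and 2 in library 2 were highest in the endothelial class itself. The sum is therefore not a measure of pericyte RNA alone. What pericyte RNA adds to carrier levels of endothelial nuclei was not tested.

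Pericytes held 1 called carrier. Slc38a11, a member of family 38 whose substrate is little studied, lies on chromosome 2 from 65316430 to 65364034 and stood at 690.3 CPM (554 to 851) in library 1 and 787 CPM (652 to 942) in library 2, 6.31 and 7.0 times the endothelial level of 109 and 112 CPM with 1 CPM added. The 8 other classes ran from 0 to 14 CPM in library 1 and 0 to 5.44 CPM in library 2. Smooth muscle nuclei, 12 and 22 in number and outside the compared classes, held 1021 CPM (729 to 1389.8) in library 1 and 1336 CPM (1093 to 1617) in library 2. In library 2 that interval lay above the interval of pericytes, and in library 1 the intervals overlapped. Slc38a11 was thus higher in pericytes and smooth muscle nuclei than in any other compared class, with endothelial nuclei between them and the 8 others. Slc6a20a, a carrier of proline and other imino acids, was also abundant in pericytes, at 1036 CPM (866 to 1228) in library 1 and 866 CPM (724 to 1028) in library 2, and the 8 fibroblast markers summed there to 78.4 and 112 CPM and to 3493 and 5206 CPM in fibroblasts. Their part in the Slc6a20a level was not tested. In smooth muscle nuclei Slc6a20a stood at 76.5 and 12.7 CPM.

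**Figure D2:**
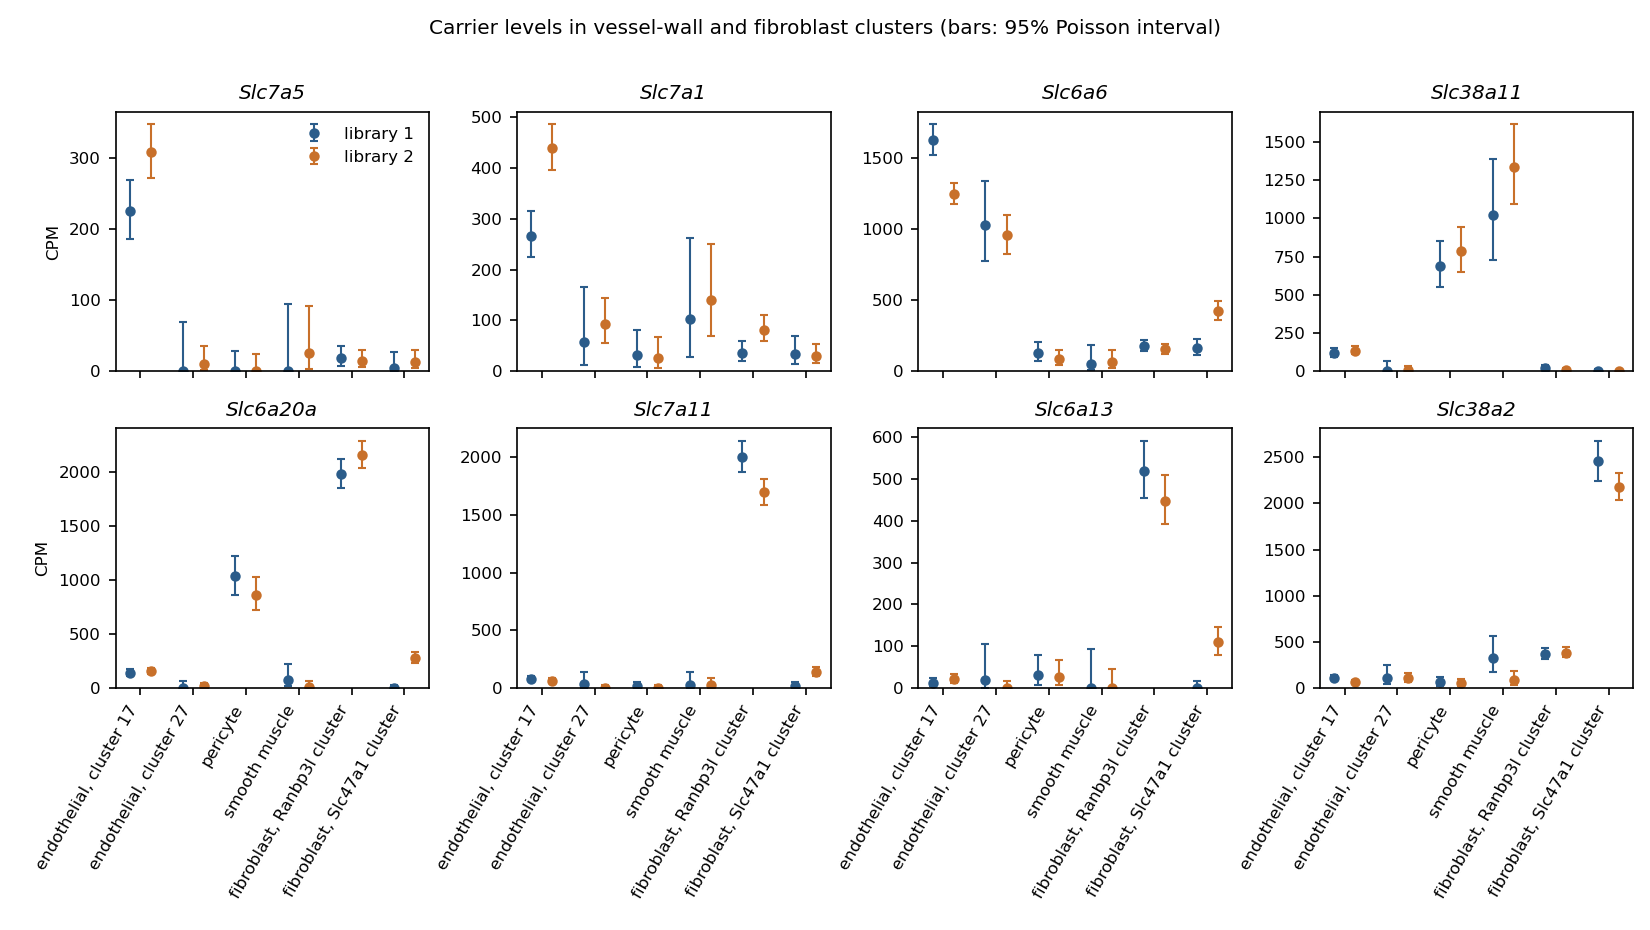
Levels (CPM, linear axis from 0) of 8 carriers in the clusters of endothelial nuclei and fibroblasts and in pericytes and smooth muscle, with points for library 1 and library 2 and bars for the 95% Poisson interval. Slc7a5 is at 225 and 309 CPM in endothelial cluster 17 and far lower in the others, Slc38a11 is high in pericytes and smooth muscle, and Slc7a11 and Slc38a2 are high in different fibroblast clusters.

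Fibroblasts had more called carriers than any other class. Slc7a11, which encodes xCT, the exchanger of cystine for glutamate, lies on chromosome 3 from 49892526 to 50443614 and stood at 1368 CPM (1279 to 1461) in library 1 and 1029 CPM (964 to 1096) in library 2. Astrocytes were next at 299 and 409 CPM, endothelial nuclei held 77.5 and 53 CPM, and the 7 other classes 4.05 to 15.7 CPM in library 1 and 0 to 28.4 CPM in library 2. Slc38a2, the glutamine and alanine carrier SNAT2, lies on chromosome 15 from 96687392 to 96699730 and stood at 1040.0 CPM (963 to 1122) in library 1 and 1154 CPM (1085 to 1225) in library 2, with oligodendrocytes next at 191 and 109 CPM. Slc6a20a was at 1352 CPM (1264 to 1445) in library 1 and 1356 CPM (1282 to 1434) in library 2 in fibroblasts, above pericytes in both libraries but by less than 2-fold. Slc6a20b, its adjacent copy, stood at 96.2 CPM (73.8 to 123) in library 1 and 177 CPM (151 to 207) in library 2. Slc6a20a and Slc6a20b lie 2204 bases apart on chromosome 9 and are near copies, so reads may have been split between them, and Slc6a20b overlaps Sacm1l on the opposite strand, so its values are uncertain. Slc7a2, the cationic carrier CAT2, stood at 216 CPM (181 to 255) in library 1 and 228 CPM (199 to 261) in library 2, with astrocytes at 105 and 100.4 CPM. Slc38a4, a neutral and cationic carrier known from liver, was called from 9 and 10 UMIs, at 14 and 10.9 CPM.

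Among carriers that were highest in fibroblasts without a call, Slc38a6 stood at 123 and 109 CPM and Slc38a10 at 59 and 44.6 CPM, both with microglia next. The fibroblast class also joined 2 clusters, and its carriers were not shared evenly between them. A cluster led by Ranbp3l had 109 and 113 nuclei, and a cluster led by Bnc2 and Slc47a1 had 68 and 80. Slc7a11 stood at 2004 and 1695 CPM in the Ranbp3l cluster and 19.4 and 139.6 CPM in the Slc47a1 cluster. Slc6a20a was at 1988 and 2162 CPM against 4.84 and 282 CPM, and Slc6a13 at 519 and 447 CPM against 0 and 109 CPM, with 0 UMIs in the latter in library 1, which allows up to 14.5 CPM. Slc1a3 followed the same side, at 1234 and 1400.5 CPM against 53.3 and 147 CPM. Slc38a2 was on the other side, at 372 and 384 CPM in the Ranbp3l cluster and 2455 and 2180.3 CPM in the Slc47a1 cluster. Slc7a2 was higher in the Slc47a1 cluster as well, at 397 and 340.1 CPM against 130.2 and 145 CPM. For these 6 carriers the intervals of the 2 clusters were apart in both libraries. When nuclei with high doublet scores were kept, the nuclei of the Ranbp3l cluster no longer carried the fibroblast name, and the class, left with 148 of its 370 nuclei, held Slc7a11 at 14.7 and 100.7 CPM and had 2 called carriers in place of 7.

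Microglia held 2 called carriers and oligodendrocyte precursors 1. Slc7a7, a light chain that exports cationic amino acids, lies on chromosome 14 from 54369442 to 54417780 and stood at 87.4 CPM (63.2 to 118) in library 1 and 142 CPM (111 to 179) in library 2 in microglia, with endothelial nuclei next at 25.8 and 26.5 CPM. Slc36a1, a proton-coupled carrier of lysosomes, stood at 122 CPM (93 to 157) in library 1 and 56.7 CPM (37.7 to 82) in library 2. The next class for Slc36a1 was fibroblasts in library 1 at 57.4 CPM and endothelial nuclei in library 2 at 25.5 CPM. Slc7a8, the light chain LAT2, was highest in microglia in both libraries, at 191 CPM (154 to 234) in library 1 and 263 CPM (220.1 to 313) in library 2. It was not called, since excitatory neurons held 101 and 85.7 CPM and inhibitory neurons 100.5 and 102 CPM, so that 2-fold was missed in library 1 only. Slc7a10, the exchanger Asc-1 of small neutral amino acids such as serine and glycine, belongs with the astrocyte calls, at 166 CPM (143 to 191) in library 1 and 117 CPM (98.8 to 137) in library 2, with precursors next at 26.5 and 21.6 CPM. Slc7a3, the cationic carrier CAT3, was called in precursors at 18.3 and 18 CPM, from 9 and 10 UMIs. That call was lost when each nucleus had equal weight.

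In neurons, carriers were broad rather than concentrated. Slc7a14, a relative of the cationic carriers found in lysosomes, stood at 232 CPM (220.2 to 245) in library 1 and 189.8 CPM (177 to 203) in library 2 in inhibitory neurons and 214 and 159 CPM in excitatory neurons. Slc6a15, a carrier of branched-chain amino acids, was at 62.7 and 57.8 CPM in inhibitory and 50.6 and 53.8 CPM in excitatory neurons. Slc7a6, a light chain for cationic and neutral exchange, was at 61 and 44.5 CPM and 60.7 and 41 CPM, with overlapping intervals. Slc6a7, the brain proline carrier, was the 1 gene with excitatory neurons as its highest class in both libraries, at 63.6 CPM (61.1 to 66.3) in library 1 and 45 CPM (42.9 to 47.1) in library 2. Slc6a17, a carrier of synaptic vesicles, stood at 221 and 153 CPM in inhibitory and 192 and 139 CPM in excitatory neurons, and at 227 CPM (152 to 327) in library 1 and 132 CPM (80.8 to 204) in library 2 in pericytes. The pericyte intervals overlapped those of both neuron classes, and the excitatory markers in pericytes are given above.

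Neuron subtypes were compared within 21 groups of at least 50 nuclei in each library. The same subtype was highest in both libraries for 17 of 51 carriers, beside 24.9% of all genes, and 1 carrier was called 2-fold over every other subtype, beside 1.49%. Slc1a2 was highest in layer 6b nuclei, at 1105 CPM (1049 to 1163) in library 1 and 1457 CPM (1394 to 1522) in library 2, followed by near-projecting nuclei at 1079 and 1295 CPM and layer 6 corticothalamic nuclei at 774 and 1199 CPM. The intervals of the first 2 overlapped in library 1 and did not in library 2. Over the 21 subtypes the median was 337 and 499 CPM, and the lowest levels were 135 CPM in parvalbumin interneurons of library 1 and 247 CPM in Sst interneurons of library 2. In layer 6b nuclei Slc1a2 stood at 14.5% and 17.5% of the astrocyte level, while the 9 astrocyte markers had a median of 3.95% and 4.17% and a highest value of 11.2% and 17.8%. Slc1a3, the other astrocyte glutamate carrier, was at 0.633% and 1.32% there. The 2 glutamate carriers of astrocytes therefore stood at different shares of their astrocyte level in the same nuclei.

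**Figure D3:**
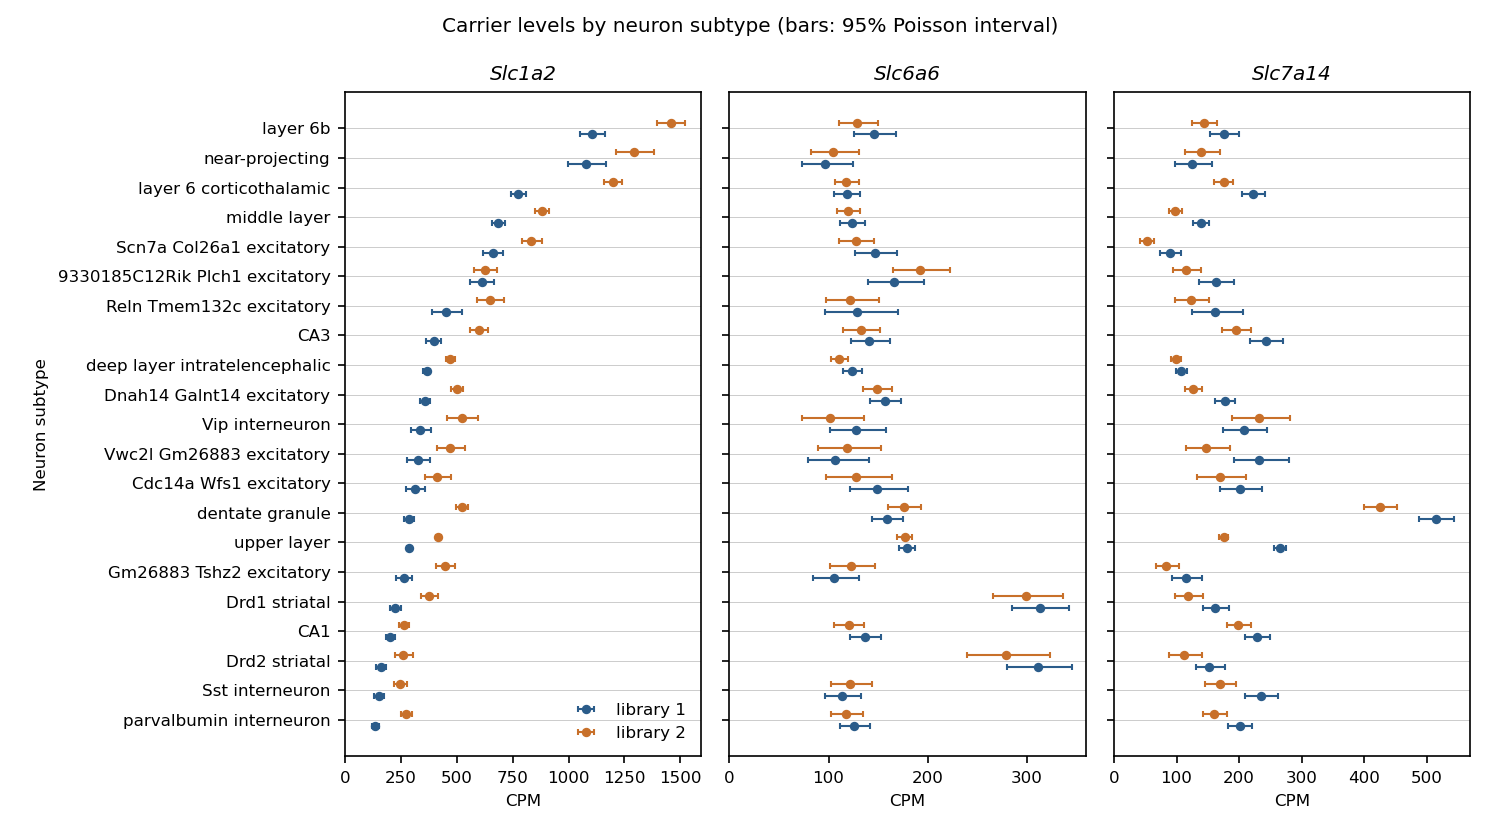
Levels (CPM, linear axis from 0) of Slc1a2, Slc6a6 and Slc7a14 in 21 neuron subtypes, ordered by Slc1a2 in library 1, with points for each library and bars for the 95% Poisson interval. Slc1a2 reaches 1105 and 1457 CPM in layer 6b nuclei, Slc6a6 reaches 313 and 299.8 CPM in Drd1 striatal nuclei and Slc7a14 reaches 515 and 426 CPM in dentate granule nuclei.

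Slc7a14 was highest in dentate granule nuclei, at 515 CPM (488 to 544) in library 1 and 426 CPM (400.4 to 452) in library 2. The next subtypes for Slc7a14 were upper layer nuclei in library 1 at 265 CPM and Vip interneurons in library 2 at 232 CPM, and it was not called. Slc6a6 was highest in Drd1 striatal nuclei at 313 and 299.8 CPM, close to Drd2 striatal nuclei at 312 and 279 CPM. A cluster of excitatory nuclei led by Reln and Tmem132c held the highest Slc6a7, at 179.8 CPM (140.4 to 227) in library 1 and 117 CPM (93 to 146) in library 2. It also held the only called level among subtypes, beside 0.0581% of all genes called there, Slc38a3 at 50.7 CPM (30.9 to 78.2) in library 1 and 17.6 CPM (9.09 to 30.7) in library 2, from 20 and 12 UMIs, and the other subtypes had at most 10.1 CPM in library 1 and 3.1 CPM in library 2. Slc38a1, a glutamine carrier of neurons, was highest in parvalbumin interneurons among subtypes, at 185 and 146 CPM, with near-projecting nuclei at 156 and 142 CPM.

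The highest class differed between libraries for 19 measured genes. Slc38a1 was highest in inhibitory neurons of library 1 at 172 CPM and in fibroblasts of library 2 at 251 CPM (219.9 to 286). Within the fibroblast class, however, the Slc47a1 cluster lay above inhibitory neurons in both libraries. It held Slc38a1 at 354 CPM (277 to 445) in library 1 and 459 CPM (395 to 531) in library 2. The Ranbp3l cluster held 41.1 and 95.1 CPM. Slc38a9, a lysosomal arginine sensor, was highest in fibroblasts of library 1 at 186 CPM and in microglia of library 2 at 184 CPM, and it was at least 78.4 and 76.2 CPM in every class. Slc43a2, a large neutral amino acid carrier, was highest in microglia of library 1 at 108 CPM and in oligodendrocytes of library 2 at 118 CPM. Both genes were thus broad. Slc36a4 was highest in endothelial nuclei at 51.7 CPM in library 1 and in microglia at 36.5 CPM in library 2. Slc38a7 was highest in pericytes at 23.5 CPM and in microglia at 20.3 CPM, and Slc7a4 likewise in pericytes at 39.2 CPM and in microglia at 24.3 CPM. The pericyte values of these 2 genes rest on 3 and 5 UMIs. Slc7a6os, a gene beside Slc7a6 that the symbol rule takes in and that is no carrier, was highest in fibroblasts at 31 CPM and in microglia at 36.5 CPM. Slc7a15 was highest in oligodendrocytes at 5.11 CPM and in microglia at 10.1 CPM, and in Vip interneurons among subtypes at 4.6 and 27.6 CPM.

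The remaining measured genes were near the limit of counting in all compared classes. Slc43a3 was highest in astrocytes at 3.4 CPM in library 1 and in pericytes at 6.61 CPM in library 2. Slc43a1 reached 0.851 CPM in astrocytes of library 1 and 2.18 CPM in fibroblasts of library 2, and Slc6a16 1.69 CPM in inhibitory neurons of library 1 and 1.09 CPM in fibroblasts of library 2. Slc6a19, a neutral amino acid carrier of gut and kidney, reached 2.03 CPM in microglia of library 1 and 0.946 CPM in endothelial nuclei of library 2, from 1 UMI each. The 16 unmeasured genes had 0 to 19 UMIs. Among them were the monoamine carriers, which are made in cell bodies outside the cortex: Slc6a2 for noradrenaline had 8 UMIs, Slc6a3 for dopamine 7 and Slc6a4 for serotonin 8. Besides these, Slc36a2 and the neuronal glycine carrier Slc6a5 given above, Slc6a21 had 14 UMIs, Slc36a3 and Slc38a8 10 each, Slc6a14 6 and Slc36a3os 2. Slc36a1os, Slc6a18, Slc7a9, Slc7a12 and Slc7a13 had 1 each and Slc6a19os had 0.

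A list of 44 other genes of the same pathways was compared beside the carriers, made of vesicular loaders, enzymes of glutamate, GABA, serine, glycine, taurine, cysteine, creatine and branched-chain or amine metabolism, and amino acid response genes. Of its 43 measured members, 28 had the same highest class in both libraries and 7 were called, beside the 41.9% and 9.37% of all genes given above. Of these 7, Glud1, Gldc and Maob were called in astrocytes, Maoa and Ddc in endothelial nuclei, Cdo1 in oligodendrocyte precursors and Gad1, which is also a class marker, in inhibitory neurons. Glul, the glutamine synthetase that acts on glutamate taken up by astrocytes, stood at 598 and 490.1 CPM in astrocytes, with fibroblasts at 369 and 325 CPM and endothelial nuclei at 357 and 216 CPM. Glud1, glutamate dehydrogenase, stood at 396 and 359 CPM in astrocytes, with endothelial nuclei at 121 CPM next in library 1 and pericytes at 139 CPM in library 2. Ckb, a creatine kinase, was highest in astrocytes of library 1 at 614 CPM and in pericytes of library 2 at 476 CPM. Astrocytes were the highest class in both libraries for 7 members of this list and for 5 carriers.

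Within a class, 11 of 51 carriers, 21.6%, differed between libraries by at least 2-fold with intervals apart in at least 1 of 10 classes, near the 18.4% of all genes that did so. Genes with few UMIs can seldom meet this rule. Of 18 such gene and class pairs, 7 were lower in library 2 and 11 higher. Slc6a8, the creatine carrier, was lower in library 2 in all 3 neuron classes, from 27.6 to 11.3 CPM in excitatory, from 31.2 to 11.1 CPM in inhibitory and from 22.5 to 10.4 CPM in striatal projection neurons. Of all genes, 2.34%, 2.54% and 2.24% were lower in library 2 by this rule in those 3 classes. Oligodendrocytes held the highest Slc6a8 level of library 1 at 46.5 CPM and pericytes that of library 2 at 33.1 CPM, from 5 UMIs. Slc6a8 was lower in library 2 in 8 of the 10 classes. Slc36a1 was lower in library 2 in microglia, from 122 CPM (93 to 157) to 56.7 CPM (37.7 to 82), beside 0.486% of all genes lower there, and in fibroblasts, beside 1.19%, and Slc6a15 was lower in fibroblasts, from 40.4 to 9.79 CPM. Slc38a2 was lower in oligodendrocyte precursors, from 91.7 to 45 CPM, beside 0.649% of all genes.

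Slc1a2 was higher in library 2 in all 10 classes, and in 2 of them by at least 2-fold, in fibroblasts from 399 CPM (352 to 451) to 917 CPM (856 to 981) and in pericytes from 392 CPM (291 to 517) to 859.7 CPM (718 to 1021), where 1.12% and 0.243% of all genes were higher in library 2 by this rule. The astrocyte markers summed to 1262 and 1707 CPM in fibroblasts and to 596 and 919 CPM in pericytes, higher in library 2 as well, and their part in the difference was not tested. In the fibroblasts the difference lay in the Ranbp3l cluster, where Slc1a2 stood at 423 and 1378 CPM, against 349 and 302 CPM in the Slc47a1 cluster. Slc38a5 was higher in library 2 in endothelial nuclei, with the values given above, beside 1.2% of all genes. Slc6a20b was higher in library 2 in excitatory and inhibitory neurons and in endothelial nuclei, where it had 0 UMIs in library 1, which allows up to 5.17 CPM, and 16.1 CPM (9.37 to 25.7) in library 2. Low levels of Slc7a11, Slc6a13, Slc6a20a and Slc7a15 in inhibitory or striatal projection neurons, none above 22.1 CPM, were also higher in library 2, as were 3.81% of all genes in inhibitory, 2.05% in striatal projection and 4.13% in excitatory neurons. With 1 pooled library on each side, a difference between libraries has no replicate check, and age, pool and library preparation cannot be told apart.

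**Figure D4:**
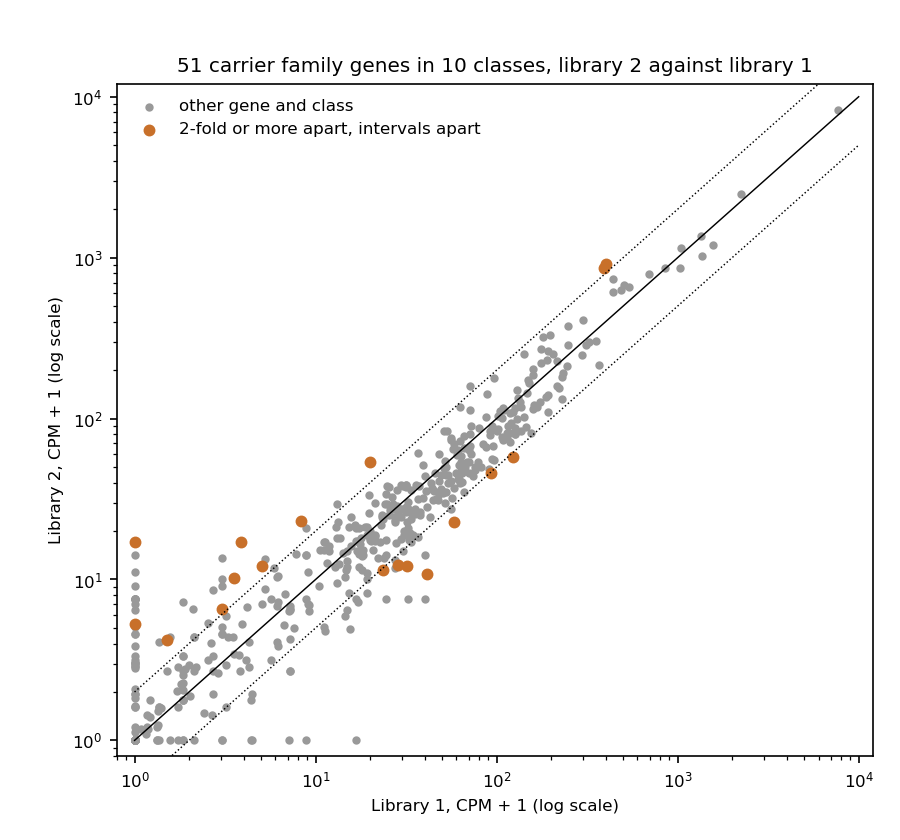
Levels in library 2 against library 1 for 51 genes in 10 classes, both as CPM + 1 on log axes, with a solid line of equality and dotted lines at 2-fold. Orange points mark the 18 gene and class pairs at least 2-fold apart with intervals apart, of which the most abundant are Slc1a2 in fibroblasts and pericytes.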

How the data were processed

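Both pools were deposited as 1 sparse matrix of raw UMI counts per gene and barcode, made with Cell Ranger 3.1.0 per the file headers, while the submitters' processing notes name Cell Ranger 2.0.1, Seurat 3.1, R 4.0.2 and mm10. This difference was not settled, and the annotation, the use of intronic reads, the strand setting and the cell calling are each not given in the sources used here. The carriers and the gene lists were chosen with earlier results of these data known.

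Barcodes with at least 200 genes, at most 5% mitochondrial UMIs and a doublet score under 0.2 were kept (Python 3.11.15, scanpy 1.11.5, scipy 1.17.1, numpy 2.4.6). The automatic doublet threshold marked 1 and 3 barcodes and had not worked, so the score limit was used and removed 296 and 347. Clustering used 2000 variable genes without the carriers and the listed enzymes that are no class markers, 30 principal components, values limited to 10 after scaling, 15 neighbours and Leiden resolution 1 with seed 1 (scikit-learn 1.9.0, leidenalg 0.10.2). A cluster took the name of the marker list with the highest score if the score reached 0.33, at least 3 markers were detected at 0.25 of their highest level, and the lead over the next list was 1.2 times. A median UMI count under 0.5 of the sample's with no marker of the name among the top 10 genes left a cluster unnamed, as did more top genes from another list. Clusters drawn to 2 classes were split by a partition at resolution 2 into pieces of at least 20 nuclei, and neuron classes were clustered again with scaling within each library. Both steps were set after the clusters were seen.

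UMIs were summed by class and library and given as CPM with exact 95% Poisson intervals, which cover counting error only. With 1 pool per age and no map from barcodes to samples, no test was made. A count of 0 is given with the level that 3 counts would make. Calls used genes with at least 20 UMIs, classes that reached 50 nuclei in both libraries, and a 2-fold lead with 1 CPM added. The rule named every measured carrier with its highest class, described the 12 most abundant and the called ones over all classes, and named 4 enzyme genes by level, and some of these are not reported here. Other enzymes and values by neuron subtype or cluster were chosen after they were seen. The calculations were tested on simulated counts. The alternatives were other doublet, mitochondrial and UMI limits, resolution 2, equal weight per nucleus, thinning to 1500 UMIs, other count minimums and other folds. Promoters were RefSeq starts on GRCm38.p6, and gene positions are mm10.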

Additional observations from a re-analysis of the deposited data

Results flagged for a closer look

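Of the 51 measured carriers, Slc7a14, Slc38a1 and Slc43a3 were at least 2-fold higher in both libraries in small groups of nuclei outside the 10 compared classes than in any compared class, with intervals above it. Slc38a11 in smooth muscle nuclei, at 1021 and 1336 CPM, was above pericytes by less than that. Slc7a14, a lysosomal relative of the cationic amino acid carriers, stood at 1015 CPM in library 1 and 989 CPM in library 2 in cluster 29, a group of 23 and 19 nuclei led by Dpp4 and Prg4 that took no class name. The highest compared class held 232 and 189.8 CPM. Slc38a1, a glutamine carrier, stood at 1051 and 990.0 CPM in 16 and 28 ependymal nuclei, against at most 172 and 251 CPM in a compared class. Within the fibroblast class, the Slc47a1 cluster held Slc38a1 at 354 and 459 CPM. Slc43a3 stood at 46.3 CPM from 3 UMIs and 99.8 CPM from 12 UMIs in the same ependymal nuclei, against at most 3.40 and 6.61 CPM. Each pattern was present in both libraries, and no test was made.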

How the results depend on the processing

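With the mitochondrial limit at 1%, carriers highest in astrocytes numbered 11 in library 1 and 18 in library 2 in place of 7 and 6, carriers called in any class 10 in place of 20, carriers called in astrocytes 7 in place of 4, and carriers apart between libraries 6 in place of 11. That limit left 8751 nuclei and 6 compared classes, with no endothelial, fibroblast, microglia or pericyte class. With doublets kept, carriers highest in fibroblasts numbered 8 and 9 in place of 13 and 14, and carriers called there 2 in place of 7, with 148 of 370 fibroblast nuclei still so named. At 3-fold, 3 carriers were apart between libraries. Of 20 calls, 13 held under every alternative that kept the class. Slc36a1, Slc38a4, Slc6a12, Slc6a13, Slc6a20b, Slc7a11 and Slc7a3 lost theirs with doublets kept, and Slc7a3 also with equal weight per nucleus. Of 335 levels recomputed, 280 stayed within their interval and 12 moved over 1.5-fold, all of them in fibroblasts with doublets kept. Pericytes, with 127473 and 151210 UMIs in all, set the least precise levels. No paired analysis was possible because the barcodes carry no replicate numbers and each age is 1 pool. Leaving out a replicate could not be done for the same reason.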
